A study of Mus musculus with 20 samples.

Results

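The addition of Neu3 loss to Glb1 loss was examined by setting 5 mouse brain libraries labelled DKO, from mice lacking both Glb1 and Neu3, against 5 libraries labelled Glb1KO, from mice lacking Glb1. These libraries were chosen by genotype label, and they are 10 of the 20 in the series. The other 10 are 5 wild-type (WT) libraries and 5 from mice lacking Neu3 (Neu3KO), used here for the matching contrast without Glb1 loss. Glb1 loss is shared by both groups compared, so the contrast asks what the loss of Neu3 adds in a brain that already lacks Glb1. Each library was made from poly(A)-selected RNA of 1 brain hemisphere, so neurons, glia, vessels and every region of that hemisphere are mixed in it. The labels give neither age nor the exons removed, and they do not say that each library came from a separate mouse. The p-values therefore measure the spread between libraries. Total counts ran from 15734414 to 20391893 in Glb1KO and from 16682458 to 18525446 in DKO. Within each of these groups no library duplicated another, and pairs across groups were not compared. Sample identifiers begin with a letter whose meaning is not given. Of the Glb1KO libraries, 3 carry L (replicates 1 to 3) and 2 carry E. Of the DKO libraries, 2 carry E (replicates 1 and 2) and 3 carry W, while all 5 WT libraries carry E and the Neu3KO libraries are 1 E and 4 W. The comparison was therefore also made with the letter as a term in the fit, and among the libraries carrying E alone. The named genes that did not pass under these alternatives are listed with the counts of all genes, and values under them are given for part of the lists and genes.

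Lysosomal beta-galactosidase, the product of Glb1, takes the terminal galactose off GM1 ganglioside, and GM1 gangliosidosis is the storage disease that follows its loss. The enzyme made from Neu3 sits at the plasma membrane and strips sialic acid from gangliosides. Gangliosides are sialic acid-bearing glycosphingolipids that are abundant in neuronal membranes. In storage diseases of the brain, microglia and astrocytes are known to change state as undegraded lipid collects in neurons, and the lysosomal gene programme is under the control of the MiT/TFE transcription factors.

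The targeted genes were measured first. Neu3 (GRCm38, chromosome 7, 99811439 to 99828417) stood at 3.85, 3.18, 4.88, 4.3 and 4.08 CPM (read counts scaled to a common library size with TMM factors) in Glb1KO replicates 1 to 5, and at 2.9, 2.07, 2.63, 4.31 and 2.97 CPM in the DKO replicates. The ranges overlapped, and DKO replicate 4 lay above the Glb1KO mean. The means were 2.98 ± 0.826 CPM (SD, n = 5) in DKO and 4.06 ± 0.621 CPM (SD, n = 5) in Glb1KO, or 73.4% of the Glb1KO level (exact two-sided permutation test, p = 0.0635, smallest possible 0.00794). Without DKO replicate 4 the difference was -1.41 CPM (exact permutation p = 0.0159), and without Glb1KO replicate 2 it was -1.30 CPM (exact permutation p = 0.0397). Reads that fall outside a removed exon are still counted, so this total does not test the Neu3 label. Glb1 (chromosome 9, 114401076 to 114474898) stood at 2.8, 4.56, 3.27, 3.98 and 2.3 CPM in Glb1KO and 2.39, 4.32, 5.31, 4.25 and 3.72 CPM in DKO, and the groups overlapped (exact permutation p = 0.341). In WT it lay between 18.2 and 21.8 CPM, so both groups compared were low in it. Neu3 itself ran from 2.32 to 5.53 CPM in WT and from 2.44 to 3.3 CPM in Neu3KO.

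Between DKO and Glb1KO, 2879 of 18336 tested genes passed edgeR's quasi-likelihood test at an adjusted p under 0.05, which is 15.7% of those tested. Of these, 1542 were higher in DKO (8.41%) and 1337 lower (7.29%). Large changes went mostly upward, with 356 genes at least 2-fold higher (1.94%) and 61 at least 2-fold lower (0.333%). In 1244 genes (6.78%) all 5 DKO libraries lay above all 5 Glb1KO libraries, and in 963 (5.25%) below them. A fit that held the letter of the identifier passed 1203 genes (6.56%, with 4.05% higher and 2.51% lower), 1080 of which had passed before. Among libraries carrying E, 2 DKO against 2 Glb1KO with the other genotypes' E libraries in the fit, 901 passed (4.48%, with 3.06% higher and 1.43% lower), 798 of them shared. When each library was left out in turn, between 2306 genes (without DKO replicate 3) and 3009 genes (without DKO replicate 1) passed. Of 246 genes named here that passed, 30 lost the call without some library, at an adjusted p of up to 0.273 and with a median absolute log2 of 0.31, namely Acta2, Arntl, Atf3, Atp6v1g1, Bcas1, C5ar1, Cdh5, Cox5a, Fnip1, Foxj1, Gsdmd, Hspb1, Ifit2, Itgam, Kdr, Nbr1, Nes, Opalin, Pecam1, Pycard, Rragc, Scarb1, St3gal1, St3gal2, St6galnac5, St8sia5, Top2a, Ugcg, Zic1 and Zmat3. Of these 246, 178 passed with the letter as a term and 164 among E libraries. The 63 that passed under neither alternative were Abcg4, Acta2, Adra2b, Anxa6, Arc, Arntl, Asns, Atp6v1g1, C5ar1, Casp1, Cck, Ccl2, Cdh5, Cdk1, Cox5a, Cxcl10, Cxcl12, Cycs, Egr2, Fas, Fnip1, Fosb, Foxj1, Gabarap, Gabbr1, Gsdmd, Hspb1, Ifit2, Ifit3, Kdr, Mrc1, Myrf, Nbr1, Nefl, Nes, Nrk, Oas1a, Opalin, Pdgfrb, Pecam1, Phgdh, Plin4, Ppp1r17, Prlr, Ptgds, Pycard, Rac2, Rragc, Scarb1, Slc32a1, Slc7a10, Snap25, Sod2, Sst, St3gal1, St3gal2, St6galnac5, Thy1, Tie1, Ugcg, Vegfa, Zic1 and Zmat3. Another 5 did not pass with the letter as a term but passed among E libraries, Atf3, Atf4, Cldn11, Mki67 and Nefm. The reverse held for 19, Alpk2, Apod, Calb1, Car8, Chga, Gria4, Iltifb, Kcnma1, Pcp2, Plekhb1, Psap, Psat1, Scn8a, Sparc, Sparcl1, Syt1, Tnc, Top2a and Vsnl1. Below, a log2 value without a further name is the log2 fold change of DKO over Glb1KO, and "rose" and "fell" are used of genes that passed this test. The gene lists share members, so their counts are not independent of each other. The lists and their members were chosen with earlier results of these data known, so a list share above that of all genes may be partly built in. The share of all genes tested that passed, beside which a list count stands, was 15.7%. With the letter as a term it was 6.56%, and among E libraries 4.48%.

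**Figure D1:**
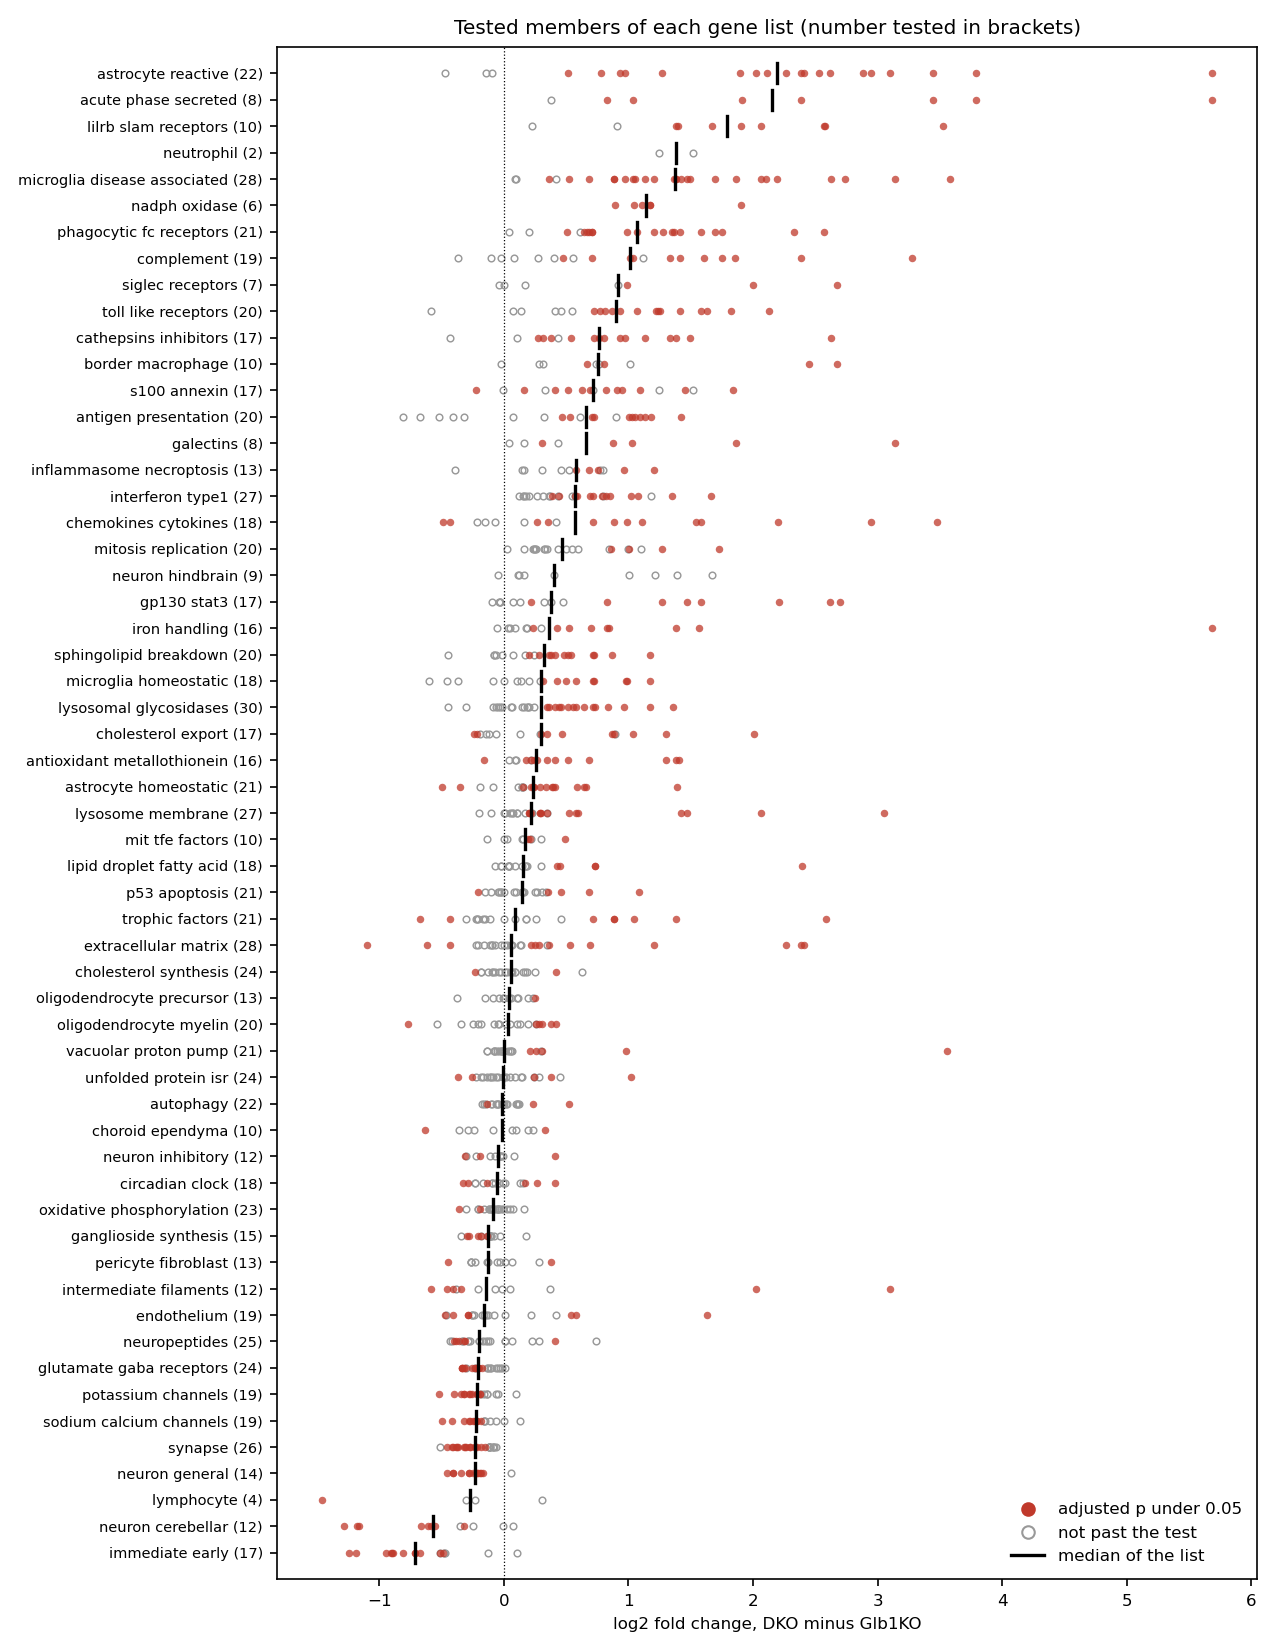
Each point is a tested member of a gene list, placed by its log2 fold change of DKO over Glb1KO (x axis), with red points for an adjusted p under 0.05, open points for the others, and a black bar at the median of the list. The reactive astrocyte and acute-phase lists lie farthest to the right, with medians of 2.19 and 2.15, and the immediate early and cerebellar lists farthest to the left, with medians of -0.71 and -0.57.

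The 12 highest and 12 lowest folds were taken only from genes whose groups do not overlap. Lack of overlap in these genes, here and below, was therefore fixed by that choice. Among the 12 highest folds were genes known from reactive astrocytes and from lipid-laden macrophages. Lcn2, a secreted iron-siderophore carrier of the acute phase, stood at 0.0584, 0.48, 0.244, 0.641 and 0.702 CPM in Glb1KO and at 11.9, 10, 23.8, 20 and 41.9 CPM in DKO. Every DKO library lay above every Glb1KO library, none of which reached 1 CPM, and DKO replicate 5 was the highest. The fold was 51.5 (log2 fold change 5.69 ± 0.51 SE, adjusted p = 3.22e-07). The fold of Lcn2 depended on the identifier letter, since the log2 value was 4.07 with the letter as a term and 4.02 among E libraries, both past the test. The 12 also held Ptx3 (log2 3.79), a pattern-recognition pentraxin, Hcar2 (3.66), the receptor for niacin and beta-hydroxybutyrate, and Gpnmb (3.58), a glycoprotein of lipid-laden macrophages. The others were Atp6v0d2 (3.56), Lilr4b (3.52), Stra6l (3.47), Serpina3n (3.45), C3 (3.28), Slc43a3 (3.14), Lgals3 (3.14) and Gfap (3.10). Lilr4b has a near-identical neighbour, Lilrb4a, and reads shared by the pair may have been split or lost in counting.

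Hcar2 read 0.35, 0.3, 0.195, 0.192 and 0 CPM in Glb1KO and 2.62, 3.25, 2.46, 2.64 and 2.65 CPM in DKO. Its DKO libraries lay close together, 1 Glb1KO library had no read, and the log2 was 4.91 with the letter as a term and 4.85 among E libraries. Among the 12 lowest folds, Abhd12b was the lowest, at 2.22, 3.66, 2.39, 2.56 and 1.79 CPM in Glb1KO and 0.513, 0.473, 0.164, 0.747 and 0.425 CPM in DKO (log2 fold change -2.43 ± 0.30 SE, adjusted p = 1.35e-07). The 12 also held Cd6 (-1.46), a receptor of T cells, Car8 (-1.28) and Pcp2 (-1.18), both genes of Purkinje cells, and Arc (-1.18), a gene induced by synaptic activity. The remaining ones were Alpk2 (-1.45), Iltifb (-1.39), Nrk (-1.36), Cox4i2 (-1.32), a subunit isoform of cytochrome oxidase, Atp2a3 (-1.24), a calcium pump of the endoplasmic reticulum, Adra2b (-1.19), an adrenergic receptor, and Tspan11 (-1.18). Iltifb has a close paralog and is uncertain for that reason.

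Genes of reactive astrocytes rose together. Of 22 tested markers of reactive astrocytes 19 rose and none fell, with a median log2 of 2.19 against -0.005 over all genes tested, and the summed level of the list ran from 549 to 739 CPM in Glb1KO and from 4416 to 5239 CPM in DKO. In a bulk sample more cells of a type and more RNA per cell cannot be told apart, which holds for every cell type list here. Gfap, the intermediate filament by which reactive astrocytes are known, stood at 551, 393, 504, 516 and 363 CPM in Glb1KO and at 3922, 4270, 4269, 3568 and 3905 CPM in DKO. All 5 DKO libraries lay far above the Glb1KO range, and the fold was 8.57 (log2 fold change 3.10 ± 0.13 SE, adjusted p = 8.29e-12).

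Serpina3n, a protease inhibitor released by reactive astrocytes, read 41.2, 36.8, 38.5, 43.6 and 35 CPM in Glb1KO and 402, 359, 461, 386 and 522 CPM in DKO, again without overlap (log2 fold change 3.45 ± 0.10 SE, adjusted p = 1.05e-18). Vim, the second filament of these cells, had a log2 of 2.03, the hyaluronan receptor Cd44 2.27, the metalloprotease inhibitor Timp1 2.38 and the asparaginase Aspg 2.41. The 3 members that did not pass had log2 values from -0.47 to -0.10. With the letter as a term 14 of the 22 passed, and among E libraries 12. Hspb1, a small heat shock protein chosen after its values were seen, went from 0.78 to 0.32 and 0.10 under these alternatives and lost its call.

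Homeostatic astrocyte genes moved less. Of 21 tested, 13 rose and 2 fell, with a median log2 of 0.23, and 7 rose and 1 fell with the letter as a term, as among E libraries. Aqp4, the water channel of astrocyte endfeet, had a mean of 239.5 ± 27.2 CPM (SD, n = 5) in Glb1KO and stood at 657, 685, 604, 603 and 585 CPM in DKO, without overlap (log2 fold change 1.39 ± 0.08 SE, adjusted p = 5.22e-12). The transcription factor Sox9 (0.66), the membrane protein Mlc1 (0.64), the folate enzyme Aldh1l1 (0.59) and the calcium-binding protein S100b (0.41) rose as well. The members that fell were both transporters, Slc7a10 for small neutral amino acids (-0.49) and Slc6a11 for GABA (-0.35). Slc6a11 read 345, 352, 339, 343 and 404 CPM in Glb1KO and 318, 281, 251.7, 283 and 264 CPM in DKO. Slc1a2, the main glutamate transporter of astrocytes and the most abundant member, had a log2 of -0.08 and did not pass.

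The acute-phase list held 8 tested genes, 7 of which rose (median log2 2.15), and the same count passed with the letter as a term and among E libraries. A2m, a broad protease trap, had a log2 of 1.92, and Serping1, the inhibitor of C1, 1.03. Of the rest, Serpina3m, Hp, Saa3, Orm1, Orm2, Crp and Fgg were too low to be tested. Signalling through gp130 and STAT3 is a known inducer of acute-phase genes, and 8 of 17 tested genes of that pathway rose while none fell. The receptor Osmr, for oncostatin M, stood at 8.06, 7.5, 5.95, 6.67 and 9.63 CPM in Glb1KO and at 40.2, 43.9, 45.6, 44.1 and 56.9 CPM in DKO (log2 fold change 2.61 ± 0.12 SE, adjusted p = 1.72e-17). Among the ligands, Lif, chosen after its values were seen, read 0.467, 0.06, 0.293, 0.449 and 0.766 CPM in Glb1KO and 2.17, 3.43, 1.53, 1.61 and 4.41 CPM in DKO (log2 fold change 2.69 ± 0.44 SE, adjusted p = 3.27e-05), whereas Il6, Osm, Cntf and Il11 were too low to be tested. Downstream, Stat3 itself (0.83), Bcl3 (2.21), a co-regulator of NF-kappaB, and Cebpd (1.58), a transcription factor of the acute phase, rose. The shared receptor chain Il6st had a log2 of 0.22.

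Intermediate filament genes changed in both directions. Gfap and Vim rose, while Ina (-0.46) and Nefl (-0.35) fell together with Nefm (-0.41) and Nes (-0.59), the latter pair named after their values were seen because they complete the 4 that fell. In the whole list 1 gene fell with the letter as a term and 2 among E libraries. Of 28 tested genes of the extracellular matrix, 10 rose and 3 fell, and 6 rose and 2 fell among E libraries. Those that fell were Tnc, an adhesive glycoprotein (-1.10), Hapln4, a link protein of perineuronal nets (-0.62), and the chondroitin sulphate proteoglycan Ncan (-0.43). Sparc (0.53), Sparcl1 (0.22) and Timp2 (0.36) were among those that rose. Of 17 tested S100 proteins and annexins 11 rose and 1 fell, with S100a6 (1.84), Anxa4 (1.45) and S100a1 (1.09) rising and Anxa6 (-0.22) falling. When the letter was a term 9 rose and none fell, and among E libraries 8 rose and none fell, with Anxa6 at an adjusted p of 0.0746 and 0.244.

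**Figure D2:**
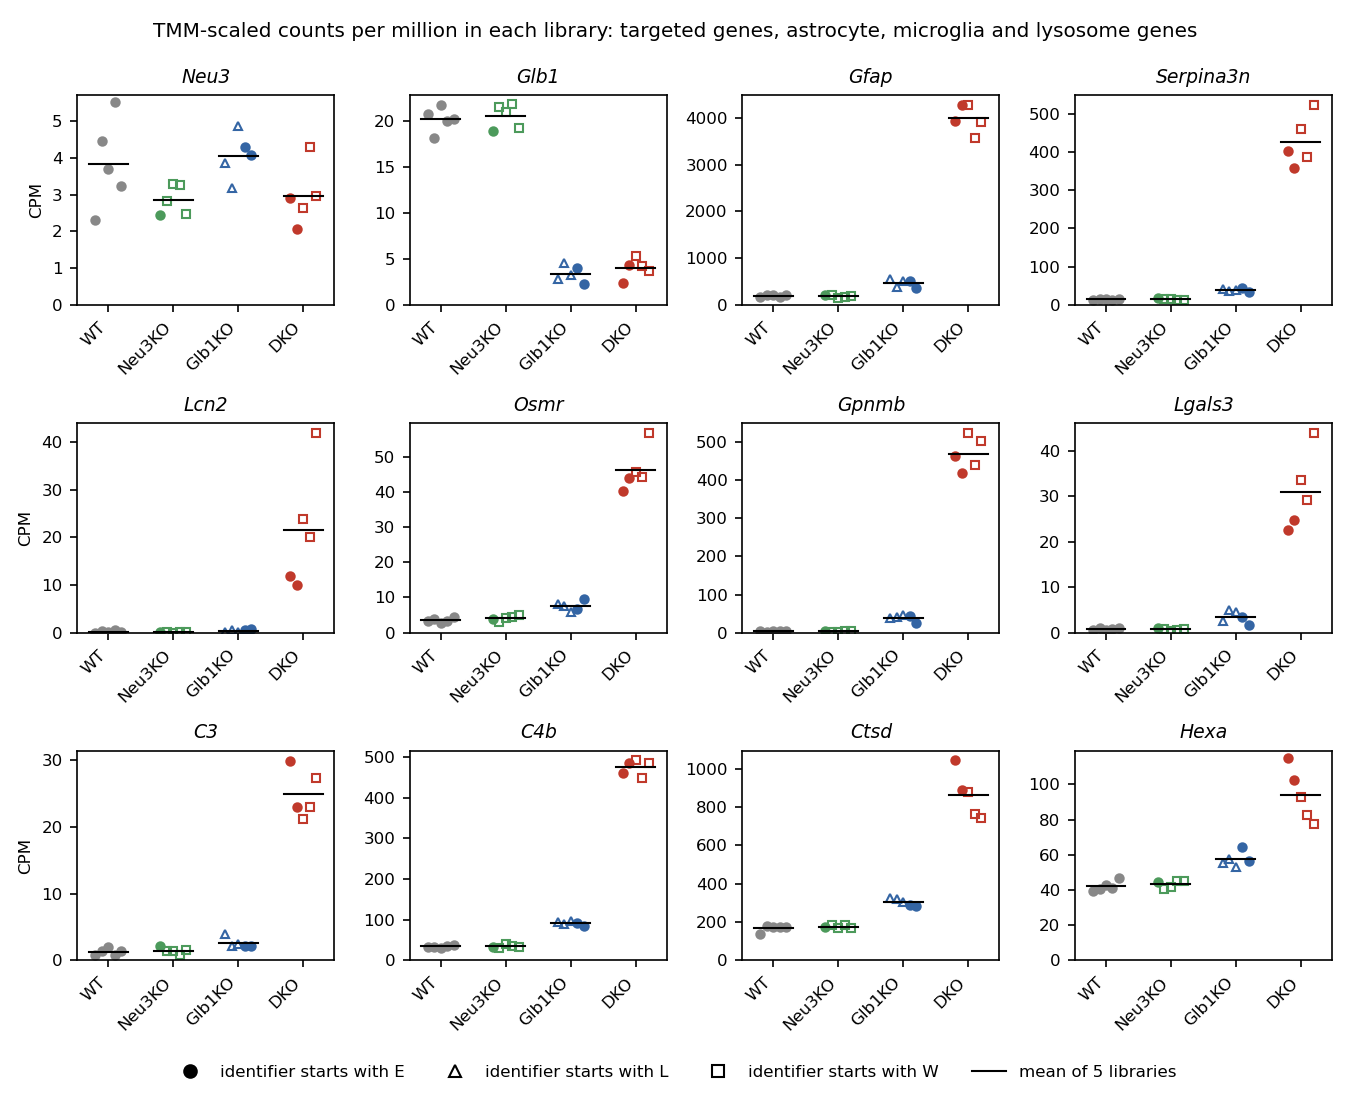
Each point is a library, placed by genotype (x axis) and by TMM-scaled CPM (y axis, from 0), with filled circles for identifiers starting with E, open triangles for L and open squares for W, and a bar at the mean of 5 libraries. For the 10 genes other than Neu3 and Glb1, all 5 DKO libraries lie above all 5 Glb1KO libraries, as in 6.78% of all genes tested. These genes were picked for high folds or small adjusted p, so this was largely fixed by the choice.

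The disease-associated microglia list, a set of genes known to rise in microglia that surround lipid and protein deposits, rose almost throughout. Of 28 tested members 25 rose and none fell (median log2 1.37), and 25 rose under both identifier alternatives and when any library was left out. The summed level ran from 4667 to 5044 CPM in Glb1KO and from 8680 to 10040 CPM in DKO. Gpnmb stood at 39.5, 42.3, 45.1, 44.1 and 25.5 CPM in Glb1KO and at 463, 419, 524, 441 and 504 CPM in DKO, while the WT libraries lay between 2.72 and 4.25 CPM (log2 fold change 3.58 ± 0.12 SE, adjusted p = 1.02e-14). Lgals3, a galectin that binds damaged lysosomes, read 2.57, 5.04, 4.58, 3.33 and 1.79 CPM in Glb1KO and 22.6, 24.8, 33.6, 29.1 and 43.9 CPM in DKO (log2 fold change 3.14 ± 0.21 SE, adjusted p = 1.56e-11). Both belong to the 12 highest folds, for which no overlap between the groups was a condition.

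Clec7a, a beta-glucan receptor chosen after its values were seen, read 3.62, 3.6, 3.41, 2.95 and 3.51 CPM in Glb1KO and 28.5, 22.2, 21.4, 21.4 and 21.1 CPM in DKO, with WT libraries between 0 and 0.381 CPM. Cd68 (2.07), Lgals3bp (1.86), the lipid-sensing receptor Trem2 (1.36), Apoe (1.03), Axl (0.68) and B2m (1.06) rose too. The 3 members that did not pass were Lpl (0.09), Ank (0.10) and Ccl6 (0.42), named as the exceptions. Apoe, the lipid carrier made by astrocytes and reactive microglia, was the most abundant member, at 1435, 1519, 1293, 1483 and 1332 CPM in Glb1KO and 2624, 2683, 2962, 2689 and 3485 CPM in DKO.

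Homeostatic microglia genes were split. Of 18 tested, 9 rose and none fell, with a median log2 of 0.30. Csf1r, the survival receptor of microglia, had a log2 of 0.50, the fractalkine receptor Cx3cr1 0.58 and the nucleotide receptor P2ry13 0.99. P2ry12 and Tmem119, both widely used as markers of resting microglia and chosen after their values were seen, did not pass. P2ry12 read 24.4, 23.4, 28.1, 24.6 and 20.7 CPM in Glb1KO and 30.2, 33.5, 26.7, 20.8 and 22.5 CPM in DKO, and the groups overlapped (log2 0.14, adjusted p = 0.489). Tmem119 had a log2 of 0.11. Cx3cr1 lies within 20 Mb of Glb1.

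Markers of other immune cells were measured beside these. Of 10 tested border macrophage markers 4 rose, and the summed level of that list ran from 29.6 to 41.9 CPM in Glb1KO and from 56.1 to 69.4 CPM in DKO. Siglec1 (2.67) and Ms4a7 (2.45) had the largest values, Mrc1 (0.80) and Stab1 (0.66) smaller ones, and the other 6, Cd163 and Lyve1 among them, did not pass. Under each identifier alternative 3 of the 10 rose, and Mrc1 no longer passed, with a log2 of 0.50 with the letter as a term (adjusted p = 0.296) and 0.43 among E libraries (adjusted p = 0.528). Of 15 lymphocyte markers 11 were too low to be tested, including Cd3e and Cd8a, and the summed level was 17.9 to 29.2 CPM in DKO against 26.3 to 33.9 CPM in Glb1KO. Of the 4 tested, Cd6 fell, and Cd4 (-0.23), Lck (0.31) and an immunoglobulin chain did not pass. Of 9 neutrophil markers 7 were too low to be tested, among them Ly6g, Mpo and Elane, and S100a8 (1.52) and S100a9 (1.25) did not pass. The part of these other cells in the microglial values was not tested.

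Receptors of microglia rose in several families. Of 7 tested sialic acid-binding Siglec receptors 3 rose, namely Siglec1, Cd22 (1.996) and Cd33 (0.99). Siglec1 stood at 1.28, 0.66, 0.829, 1.28 and 0.447 CPM in Glb1KO and at 4.73, 4.73, 8.05, 5.06 and 6.32 CPM in DKO, without overlap. Siglecf, with a log2 of 0.91, did not pass. Of 10 tested Lilrb, Cd200r and SLAM receptors 8 rose (median 1.79), and 5 with the letter as a term. Lilr4b read 0.526, 0.66, 0.829, 1.28 and 0.893 CPM in Glb1KO and 6.67, 8.16, 8.54, 9.03 and 15.8 CPM in DKO, and its log2 was 2.88 with the letter as a term and 2.77 among E libraries. Cd200r4 (2.57), Lilrb4a (2.58) and Cd84 (2.06) rose beside it. Of 21 tested Fc and phagocytic receptors with their kinases 18 rose (median 1.07), among them the inhibitory Fc receptor Fcgr2b (2.57), the integrin chain Itgb2 (1.75) and the signalling chain Fcer1g (1.58). Of 20 tested Toll-like receptors and partners 14 rose (median 0.90), among them Tlr2 (2.13), Cd180 (1.83), Tlr13 (1.58) and Ly86 (1.24), and 8 rose among E libraries.

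Complement genes rose at 11 of 19 tested, and none fell (median 1.01). C3, the central component, stood at 3.91, 2.16, 2.49, 2.12 and 2.11 CPM in Glb1KO and at 29.9, 23, 21.2, 23 and 27.4 CPM in DKO (log2 fold change 3.28 ± 0.18 SE, adjusted p = 2.74e-15). C4b, an early component of the classical pathway, read 94.4, 88.6, 96.1, 91.5 and 83.9 CPM in Glb1KO and 461, 485, 492, 449 and 485 CPM in DKO (log2 fold change 2.38 ± 0.06 SE, adjusted p = 4.6e-25). Both were without overlap, and C4b shares reads with its copy C4a, so its level is uncertain. C1qa, which starts the classical pathway, had a log2 of 1.41, and the inhibitor Serping1 rose as well. The receptors C3ar1 and C5ar1 and the integrin chains Itgam and Itgb2 that form complement receptor 3 were also among those that rose, at 1.85, 1.01, 0.70 and 1.75, Itgb2 by the rule and the others chosen after their values were seen. Under each identifier alternative 10 of the 19 rose, and C5ar1 did not pass with the letter as a term (adjusted p = 0.397) or among E libraries (adjusted p = 0.343).

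Chemokine and cytokine genes changed in both directions, with 11 of 18 tested higher and 2 lower. Ccl2, a monocyte attractant, stood at 0, 0.12, 0.146, 0.128 and 0.128 CPM in Glb1KO and at 0.797, 1.06, 0.712, 1.38 and 2.23 CPM in DKO, so that its log2 of 3.48 rests on very few reads in Glb1KO. Cxcl10, an interferon-induced attractant chosen after its values were seen, read 0.701, 0.48, 0.732, 1.03 and 0.447 CPM in Glb1KO and 3.87, 3.02, 5.09, 5.4 and 8.97 CPM in DKO (log2 fold change 2.95 ± 0.47 SE, adjusted p = 7.24e-05). Cxcr4 (1.54), Csf1 (0.89) and Tgfb1 (0.72) rose, and the neuronal chemokine Cx3cl1 (-0.43) and Cxcl12 (-0.48) fell. With the letter as a term 4 rose and 1 fell, and Ccl2 and Cxcl10 were among those that no longer passed, with log2 values of 2.73 and 2.24. Tnf, Il1b, Il6 and Il10 were too low to be tested.

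Of 27 tested genes of the type I interferon response 13 rose and none fell (median 0.57), while 6 rose with the letter as a term and 4 among E libraries. Bst2, which tethers budding virus particles, stood at 3.33, 3.48, 4.44, 4.55 and 3.64 CPM in Glb1KO and at 8.37, 7.69, 7.5, 7.19 and 10.2 CPM in DKO (log2 fold change 1.07 ± 0.18 SE, adjusted p = 5.79e-05). Ifitm3 (1.02), Ifit3 (0.72), Ddx58 (0.69) and Ifit2 (0.38) rose, and the transcription factor Stat2 (0.18) did not pass. The letters of a known interferon-stimulated element were looked for in the promoters of this list, whether or not the gene passed. Promoters were taken from RefSeq on GRCm38.p6 as 250 bases before to 50 after the start. The letters searched were GAAANNGAA on both strands, and they occurred in 13 of the 19 promoters matched (68.4%) against 8.34% of 20481 promoters of all genes. Of the 13 genes, 8 rose, beside 11 of all 19 matched. The letters TTCNNNGAA, which read the same on both strands and are bound by STAT factors, occurred in 5 of the 19 (26.3%) against 8.03%, and in 2 of these promoters they shared bases with GAAANNGAA. In the acute-phase list they occurred in 0 of 9 promoters matched, and in the gp130 and STAT3 list in 1 of 18 (5.56%). A match describes the letters and is neither a site nor a cause.

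The bases before the start are shown for 3 interferon genes that rose and for Lamp1 of the lysosome, because their promoters hold the searched letters more than once. Each runs 5′ to 3′ on the strand of the gene, in lower case, with the searched letters in capitals (GAAANNGAA for the first 3, on either strand, and CACGTG for Lamp1). Bst2 lies at chr8:71537473-71537722 (minus strand), Ifit3 at chr19:34583279-34583528 (plus strand), Oas1a at chr5:120907526-120907775 (minus strand) and Lamp1 at chr8:13158911-13159160 (plus strand).
Bst2: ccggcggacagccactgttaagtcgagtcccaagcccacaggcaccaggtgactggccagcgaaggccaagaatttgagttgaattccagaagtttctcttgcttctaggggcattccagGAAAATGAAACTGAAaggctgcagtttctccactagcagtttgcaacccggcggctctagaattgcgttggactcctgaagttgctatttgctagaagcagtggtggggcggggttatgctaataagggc
Ifit3: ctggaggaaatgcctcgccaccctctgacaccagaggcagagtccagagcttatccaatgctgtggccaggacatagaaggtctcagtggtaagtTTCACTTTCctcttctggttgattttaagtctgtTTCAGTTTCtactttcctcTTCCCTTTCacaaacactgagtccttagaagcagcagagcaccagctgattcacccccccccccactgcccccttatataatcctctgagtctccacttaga
Oas1a: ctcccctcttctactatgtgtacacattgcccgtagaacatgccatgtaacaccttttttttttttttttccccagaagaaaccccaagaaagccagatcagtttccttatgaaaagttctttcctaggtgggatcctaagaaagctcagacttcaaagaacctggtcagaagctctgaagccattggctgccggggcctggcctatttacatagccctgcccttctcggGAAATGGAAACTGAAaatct
Lamp1: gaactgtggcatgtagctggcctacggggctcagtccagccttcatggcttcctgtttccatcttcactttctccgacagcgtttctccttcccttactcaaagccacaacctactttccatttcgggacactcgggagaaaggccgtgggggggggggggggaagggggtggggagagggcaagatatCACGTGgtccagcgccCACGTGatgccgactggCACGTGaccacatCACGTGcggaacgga

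In Bst2 and in Oas1a the 2 matches overlap each other, and in Ifit3 the 3 matches stand apart on the opposite strand. Oas1a, a sensor of double-stranded RNA chosen after its values were seen, had a log2 of 1.35 (adjusted p = 0.0023) and belongs to a family of near-identical copies, so its counts are uncertain. Oas1a and Ifit3 did not pass with the letter as a term (adjusted p = 0.0793 and 0.0912) or among E libraries (adjusted p = 0.126 and 0.0543). The 4 matches of CACGTG in Lamp1 lie between 61 and 15 bases before the start.

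Antigen presentation genes rose on the class I side. Of 20 tested genes 11 rose and none fell, all that rose were of class I or its loading pathway, and 7 rose among E libraries. The class I heavy chains H2-K1 (1.18) and H2-D1 (1.09), the light chain B2m (1.06) and the class I regulator Nlrc5 (1.42) were among them. The class II genes H2-Aa (-0.81), H2-Eb1 (-0.68) and H2-Ab1 (-0.52) and their activator Ciita (-0.41), chosen after their values were seen, did not pass, and their libraries overlapped. The other class II genes of the list did not pass either, with log2 values on both sides of 0, up to 0.32. For H2-Aa the log2 was -0.36 with the letter as a term and -0.22 among E libraries. A fall of class II genes was therefore not shown. H2 genes share reads with near-identical copies. All 6 tested subunits of the phagocyte NADPH oxidase, which makes superoxide, rose (median 1.14), with Cyba (1.90) the highest beside Rac2 (1.18) and Ncf1 (1.11), and 4 of 6 passed under both identifier alternatives. Of 13 tested inflammasome and necroptosis genes 5 rose, including Pycard (0.76), Casp1 (0.96) and Gsdmd (0.58), and none of the 13 passed with the letter as a term or among E libraries.

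Galectin, iron and antioxidant genes rose in part. Of 8 tested galectins and partners 5 rose, with Lgals3 and Lgals3bp ahead of Lgals9 (1.03) and Lgals1 (0.88). Of 16 tested iron-handling genes 9 rose and none fell, among them the phagosomal metal transporter Slc11a1 (1.57), the ferritin chains Ftl1 (0.84) and Fth1 (0.52), and Hmox1 (1.38), which breaks down heme. Of 16 tested antioxidant genes 11 rose, with the metallothionein Mt1 (1.30) and the cystine transporter Slc7a11 (0.68) among them, and 1 fell, the mitochondrial Sod2 (-0.16). Under each identifier alternative 8 rose and none fell, with Sod2 at an adjusted p of 0.444 with the letter as a term and 0.684 among E libraries. Mt1 read 289, 290, 235, 217 and 278 CPM in Glb1KO and 592, 571, 762, 666 and 636 CPM in DKO, without overlap.

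Lysosomal genes rose unevenly across the parts of the organelle. Of 17 tested cathepsins and inhibitors 14 rose and none fell (median 0.77), and of 30 tested glycosidases 15 rose and none fell (median 0.30). Ctsd, the main aspartic protease, stood at 328, 320, 307, 291 and 285 CPM in Glb1KO and at 1047, 887, 878, 765 and 742 CPM in DKO (log2 fold change 1.495 ± 0.08 SE, adjusted p = 1.86e-13). Ctsz (1.38), Ctsl (1.13), Ctsb (0.97) and Ctsc (0.93) rose with it, and Cst7, an inhibitor of cathepsins chosen after its values were seen, had the highest value of the list (2.62). Ctsc lies within 20 Mb of Neu3.

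Among glycosidases, Hexa, which acts on GM2 ganglioside, the product of beta-galactosidase, read 55.1, 57.8, 53.3, 64.2 and 56.5 CPM in Glb1KO and 115, 102, 92.6, 82.4 and 77.5 CPM in DKO (log2 fold change 0.71 ± 0.08 SE, adjusted p = 2.15e-08). Naglu (1.36), which takes apart heparan sulphate, and Man2b1 (0.84), which takes apart N-glycans, rose as well. The other sialidases, named as relatives of Neu3, did not pass, with log2 values of -0.02 for the lysosomal Neu1, -0.06 for Neu4 and -0.30 for Neu2. Of 20 tested genes of sphingolipid breakdown 12 rose and none fell (median 0.32), including Sgpl1 (0.87), which splits sphingosine phosphate, Ctsa (0.73), which shields beta-galactosidase and Neu1, and Psap (0.28), the precursor of the saposins. Of 15 tested genes that build gangliosides and related lipids none rose and 5 fell, each by little, namely Ugcg (-0.18), St8sia5 (-0.29), St3gal1 (-0.28), St3gal2 (-0.14) and St6galnac5 (-0.21). With the letter as a term 1 gene of the list fell, as among E libraries, and as single libraries were left out the count ran from 0 (without DKO replicate 3) to 5.

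Lysosomal membrane genes rose at 15 of 27 tested and none fell (median 0.22), and 9 rose among E libraries. Lamp1 stood at 324, 312, 313, 311 and 319 CPM in Glb1KO and at 504, 468, 488, 444 and 464 CPM in DKO, without overlap (log2 fold change 0.58 ± 0.053 SE, adjusted p = 1.87e-10). Laptm5 (1.47) and Cd63 (1.43) had larger values, and Mcoln3, a calcium channel of endolysosomes chosen after its values were seen, the largest, at 0.526, 0.54, 0.341, 0.257 and 0.319 CPM in Glb1KO and 4.39, 2.84, 2.25, 3.51 and 3.72 CPM in DKO (log2 fold change 3.05 ± 0.37 SE, adjusted p = 1.35e-07). Scarb2 (0.20), the carrier of glucocerebrosidase, rose by less. The proton pump that acidifies the lysosome moved little. Of 21 tested subunits 5 rose and none fell, with a median of 0.002, and 3 rose under each identifier alternative.

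Of the 5 pump subunits that rose, Atp6v0d2 and Tcirg1 are isoforms known from osteoclasts and macrophages. Atp6v0d2 read 0.409, 0.6, 0.634, 0.0641 and 0 CPM in Glb1KO and 4.27, 4.73, 4.66, 5.06 and 2.6 CPM in DKO (log2 fold change 3.56 ± 0.42 SE, adjusted p = 2.56e-07). All 5 WT libraries were at 0. Its log2 value among E libraries was 6.86, where both Glb1KO libraries were at or near 0, so that fitted value is no bound. Tcirg1 had a log2 of 0.98, Atp6v0a2 0.31 and Atp6v1g1 0.26. Of 10 tested MiT/TFE factors and their regulators 3 rose, Fnip2 (0.49), Fnip1 (0.21) and Rragc (0.19), and 1 passed with the letter as a term. Of 22 tested autophagy genes 2 rose, the receptor Optn (0.52) and Gabarap (0.24), and 1 fell, the receptor Nbr1 (-0.13). The share called was 13.6%, near the 15.7% of all genes tested, and 1 gene passed under each identifier alternative. The letters CACGTG, the core bound by MiT/TFE factors and reading the same on both strands, occurred in 5 of 25 lysosomal membrane promoters (20%), 3 of 13 cathepsin promoters (23.1%), 5 of 22 glycosidase promoters (22.7%) and 4 of 17 proton pump promoters (23.5%), against 7.68% of all promoters. The share was 9.57% among promoters of genes tested and 10.2% among those of genes that rose.

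Lipid genes were counted by role. Of 17 tested genes of cholesterol export and carriage 8 rose and 2 fell, including Ch25h (2.01), which makes 25-hydroxycholesterol and was chosen after its values were seen, Apod (1.30), Apoe, the lysosomal cholesterol carrier Npc2 (0.88) and the transporter Abca1 (0.87). Scarb1 (-0.24) and Abcg4 (-0.22) fell, and neither passed under the identifier alternatives. Among E libraries 4 rose, and Apod no longer passed, at a log2 of 0.78 (adjusted p = 0.0895). Of 24 tested genes of cholesterol synthesis 1 rose, Lss (0.42), and 1 fell, while among E libraries 3 rose and none fell. The share of that list called was 8.33%, against 15.7% of all genes tested. Of 18 tested lipid droplet and fatty acid genes 5 rose, including Plin2 (0.73) and Fabp5 (0.73), and 3 rose under each identifier alternative. Plin4, a droplet coat protein, stood at 4.5, 2.64, 3.41, 12.5 and 12.2 CPM in Glb1KO and at 20.6, 25.1, 41.7, 48.4 and 46.5 CPM in DKO, with the 2 Glb1KO libraries carrying E above those carrying L. Its log2 of 2.40 went to 1.11 with the letter as a term and to 0.90 among E libraries, and the call was lost in both.

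**Figure D3:**
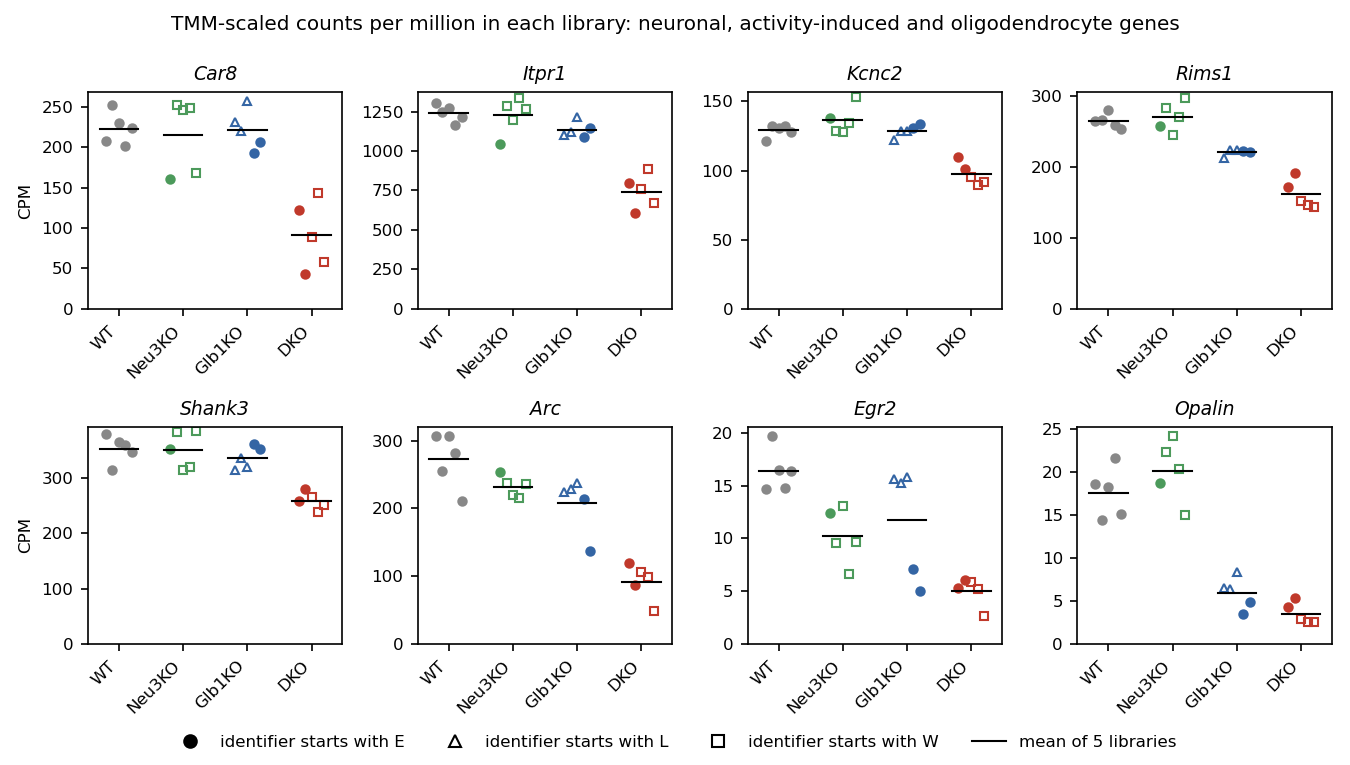
Each point is a library, placed by genotype (x axis) and by TMM-scaled CPM (y axis, from 0), with symbols for the first letter of the identifier as in the legend and a bar at the mean of 5 libraries. DKO libraries lie below all Glb1KO libraries for Car8, Itpr1, Kcnc2, Rims1, Shank3 and Arc, whereas for Egr2 and Opalin the Glb1KO libraries carrying E lie within or near the DKO range. Over all genes tested, DKO lay below in 5.25%. The first 6 genes were picked for low folds or small adjusted p, so their lack of overlap was largely fixed by the choice.

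Neuronal genes fell by small amounts across many families. Of 14 tested pan-neuronal genes 13 fell and none rose (median -0.23), and the summed level ran from 8406 to 8622 CPM in Glb1KO and from 6821 to 7670 CPM in DKO. With the letter as a term 5 of the 14 passed, at a median of -0.25, and among E libraries 3. Snap25, a SNARE protein of synaptic vesicle release, read 1764, 1739, 1668, 1710 and 1684 CPM in Glb1KO and 1495, 1431, 1493, 1274 and 1366 CPM in DKO (log2 fold change -0.28 ± 0.053 SE, adjusted p = 0.000209), and with the letter as a term its log2 was -0.25 (adjusted p = 0.0502). Vsnl1 (-0.40), Thy1 (-0.28) and Syt1 (-0.18) fell too. CPM are scaled with TMM factors, and the median log2 over all genes tested was -0.005. How much of the neuronal fall goes with a larger share of glial RNA was not tested.

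Of 26 tested synaptic genes 16 fell and none rose (median -0.23), and 15 fell with the letter as a term. Rims1, a scaffold of the presynaptic active zone, stood at 211.7, 224, 223, 223 and 220.2 CPM in Glb1KO and at 172, 191, 152, 146 and 144 CPM in DKO (log2 fold change -0.45 ± 0.06 SE, adjusted p = 1.13e-06). Shank3, a scaffold of the postsynaptic density, read 315, 336.3, 320.1, 363 and 353 CPM in Glb1KO and 259, 281, 266.1, 238 and 251.9 CPM in DKO, likewise without overlap (log2 fold change -0.38 ± 0.06 SE, adjusted p = 1.62e-05). Shank2 (-0.41) fell, and Camk2a, the abundant kinase of excitatory synapses, had a log2 of -0.12 and did not pass. Of 24 tested glutamate and GABA receptor subunits 13 fell and none rose, including Gabrd (-0.34), Gria4 (-0.34) and Gabbr1 (-0.20), while 6 of the 24 passed with the letter as a term and 4 among E libraries.

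Ion channel genes fell as well. Of 19 tested potassium channel genes 12 fell and none rose, while 10 fell with the letter as a term and 7 among E libraries. Kcnc2, a channel of fast-firing neurons, stood at 122, 129, 128, 131 and 134 CPM in Glb1KO and at 109.8, 101, 95.6, 89.4 and 91.6 CPM in DKO (log2 fold change -0.40 ± 0.06 SE, adjusted p = 2.58e-06). Kcnma1 (-0.35) and Kcnj9 (-0.32) fell beside it. Of 19 tested sodium and calcium channel genes 11 fell and none rose, among them Cacna1g (-0.50), Scn2b (-0.41) and Scn8a (-0.25), with 7 passing with the letter as a term and 4 among E libraries. Markers of inhibitory neurons were mostly not past the test, with 2 of 12 lower, Sst (-0.31) and Slc32a1 (-0.19), and 1 higher, Vip (0.41), which was the only one to pass with the letter as a term. Of 25 tested neuropeptide and granin genes 5 fell, including Cck (-0.38), Chga (-0.36) and Chgb (-0.32), and 1 rose, Vip (list median -0.20). When the letter was a term 3 fell and 2 rose (median -0.06), and among E libraries 2 fell and 2 rose (median 0.006), with Cck past the threshold in neither.

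Genes of cerebellar Purkinje cells were among the neuronal genes that fell most. Of 12 tested cerebellar genes 8 fell and none rose (median -0.57). Car8, a carbonic anhydrase-related protein of Purkinje cells, stood at 232, 219.7, 258, 192 and 207 CPM in Glb1KO and at 122, 43.1, 89.2, 143 and 57.7 CPM in DKO (log2 fold change -1.28 ± 0.25 SE, adjusted p = 0.00168). Pcp2 read 23.5, 21.2, 27.3, 23.3 and 23.6 CPM in Glb1KO and 13, 4.38, 11.5, 16.6 and 7.27 CPM in DKO (log2 fold change -1.18 ± 0.25 SE, adjusted p = 0.00279). Among E libraries their log2 values were -1.26 (adjusted p = 0.221) and -1.41 (adjusted p = 0.12), past the threshold for neither. In both genes DKO replicates 2 and 5 were the lowest and DKO replicate 4 the highest, and no DKO library reached the Glb1KO range. Itpr1, the calcium release channel that is densest in Purkinje cells, read 1103, 1123, 1214, 1089 and 1147 CPM in Glb1KO and 799.7, 605, 758, 884 and 670.5 CPM in DKO (log2 fold change -0.61 ± 0.07 SE, adjusted p = 1.18e-06). Calb1 (-0.67) fell as well. Of the genes known from cerebellar granule cells, Cbln3 (0.07) and, chosen after their values were seen, Gabra6 (-0.35) did not pass, while Zic1 (-0.32) fell. Cbln3 read 232, 200.2, 268, 175 and 187 CPM in Glb1KO and 200, 158, 249, 285 and 225 CPM in DKO, and these ranges overlapped. Ppp1r17, a further Purkinje gene chosen after its values were seen, had a log2 of -1.16. With the letter as a term 5 of the 12 passed at a median of -0.53, and among E libraries 2 passed at a median of -0.49. Genes of hindbrain neurons, 9 of which were tested, did not pass, with log2 values from -0.05 to 1.67 and a summed level of 24.7 to 41.4 CPM in Glb1KO and 36.9 to 59.8 CPM in DKO.

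Immediate early genes, which neurons switch on within minutes of activity, fell at 12 of 17 tested (median -0.71). Arc stood at 224, 229, 238, 214 and 136 CPM in Glb1KO and at 119, 86.7, 106, 99.2 and 48.4 CPM in DKO, without overlap (log2 fold change -1.18 ± 0.20 SE, adjusted p = 0.000387). Egr1 (-0.95), Fosb (-0.89) and Nptx2 (-0.71) fell too. This group moved with the identifier letter. Egr2, chosen after its values were seen, read 15.7, 15.2, 15.8, 7.05 and 4.98 CPM in Glb1KO, where the first 3 libraries carry L and the last 2 carry E, and 5.3, 6.03, 5.86, 5.23 and 2.6 CPM in DKO. Its log2 of -1.25 became -0.08 with the letter as a term, and the call was lost. Of the 17 genes 3 passed with the letter as a term, at a median of -0.19, and 4 among E libraries, at a median of -0.29. Arc had a log2 of -0.80 with the letter as a term (adjusted p = 0.108) and of -0.76 among E libraries (adjusted p = 0.282).

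**Figure D4:**
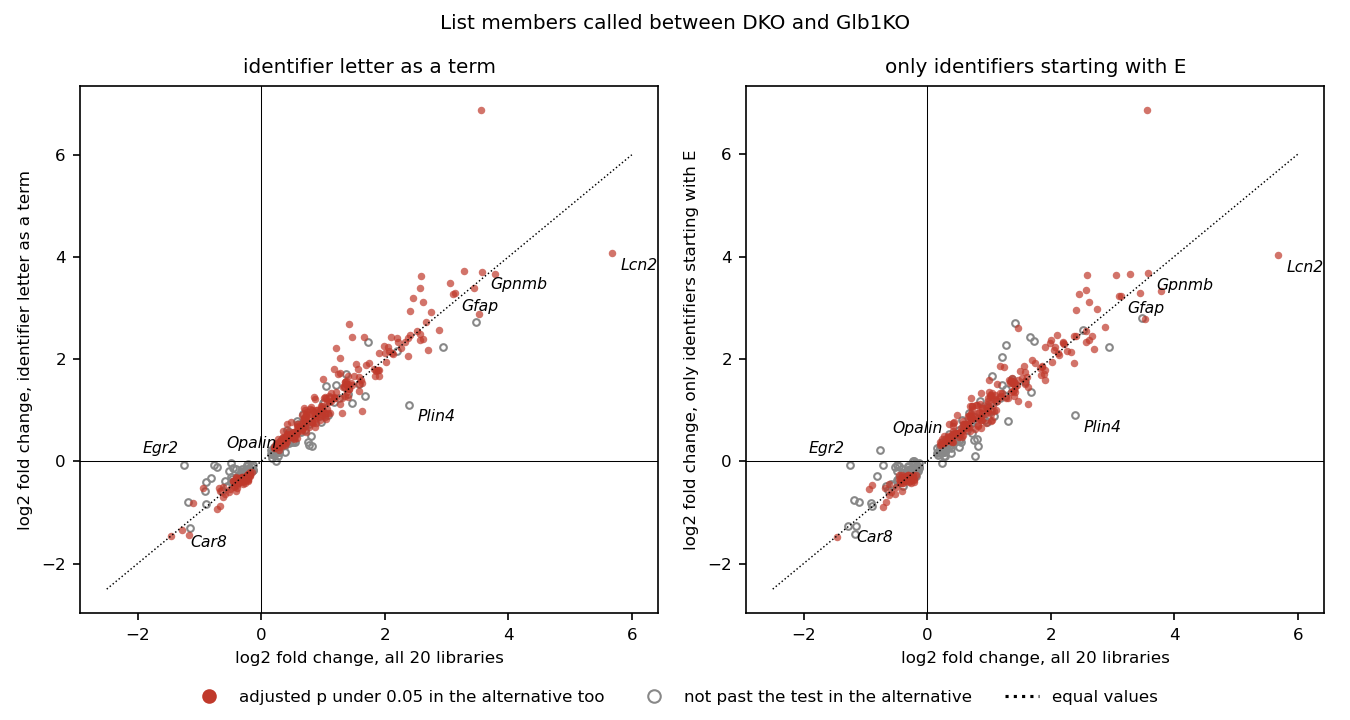
Each point is a list member called between DKO and Glb1KO, with its log2 fold change from all 20 libraries on the x axis and, on the y axis, with the identifier letter as a term (left) or among libraries with identifiers starting with E (right), red where the alternative also passes. Most points follow the dotted line of equal values, and Plin4, Egr2 and Opalin lie nearer to 0 on the y axis, at 1.11, -0.08 and -0.07 with the letter as a term.

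Most oligodendrocyte genes did not pass. Of 20 tested myelin genes 5 rose and 1 fell (median 0.04), and the number passing ran from 5 to 10 as single libraries were left out, the 10 being without DKO replicate 1, where 5 rose and 5 fell. Holding the letter, 3 rose and none fell (median 0.17), among E libraries 5 rose and none fell (median 0.23), and with only the E libraries of the 2 groups fitted 7 rose and none fell (median 0.22). Mbp, a structural myelin protein, stood at 1847, 1546, 1621, 1673 and 1677 CPM in Glb1KO and at 2223, 2051, 2024, 1794 and 1917 CPM in DKO, with overlap (log2 fold change 0.26 ± 0.06 SE, adjusted p = 0.00176), while the WT libraries lay between 2503 and 2863 CPM. Cldn11 (0.38), Plekhb1 (0.31) and Myrf (0.28) rose. Opalin, a membrane protein of mature oligodendrocytes, fell (log2 fold change -0.77 ± 0.23 SE, adjusted p = 0.0248), from 6.48, 6.3, 8.29, 3.46 and 4.79 CPM in Glb1KO to 4.27, 5.26, 2.9, 2.53 and 2.5 CPM in DKO. Its log2 was -0.07 with the letter as a term and 0.22 among E libraries, where the direction turned. Of 13 tested precursor genes 1 rose, Bcas1 (0.25), a share of 7.69% against 15.7% of all genes tested.

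Vessel genes went in both directions. Of 19 tested endothelial genes 3 rose, all of them linked to leukocyte or platelet adhesion: Icam1 (1.63), Vcam1 (0.58) and Vwf (0.54). The 4 that fell were Tie1 (-0.47) and, chosen after their values were seen, Kdr (-0.41), Pecam1 (-0.29) and Cdh5 (-0.29), and none of these 4 passed with the letter as a term. Of 13 tested pericyte and fibroblast genes 1 rose, Pdgfrb (0.38), and 1 fell, Acta2 (-0.45), and of 10 choroid plexus and ependyma genes 1 rose, Foxj1 (0.33), and 1 fell, Prlr (-0.63), with none of these passing with the letter as a term. The shares called in these lists, 15.4% and 20%, lie near the 15.7% of all genes tested.

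Stress and growth programmes changed at single genes, with several shares near the 15.7% called over all genes tested. Called were 38.1% of trophic factors, 20.8% of unfolded protein and integrated stress genes and 23.8% of p53 and apoptosis genes. For mitosis and replication the share was 20%, for the clock 33.3% and for oxidative phosphorylation 8.7%. Of 21 tested trophic factors 6 rose, including the stress cytokine Gdf15 (2.58), chosen after its values were seen, the lysosomal growth factor Grn (1.38), Fgf2 (1.04) and Igf1 (0.89), and 2 fell, Bdnf (-0.68) and Vegfa (-0.43). Under each identifier alternative 6 rose and 1 fell, and Vegfa did not pass (adjusted p = 0.0617 with the letter as a term and 0.365 among E libraries). Bdnf, a neurotrophin of active neurons, read 28.5, 27.5, 28.4, 29.3 and 26.5 CPM in Glb1KO and 16.7, 22.1, 17.6, 17 and 14.5 CPM in DKO, without overlap. Of 24 tested genes of the unfolded protein and integrated stress responses 3 rose, Atf3 (1.02), chosen after its values were seen, Psat1 (0.38) and Phgdh (0.24), and 2 fell, Atf4 (-0.37) and Asns (-0.25), with 1 rising and none falling when the letter was a term. Of 21 tested p53 and apoptosis genes 4 rose, including Fas (1.09), and 1 fell, Zmat3 (-0.21), with none passing with the letter as a term. Of 20 tested mitosis and replication genes 4 rose and none fell, Cdk1 (1.73), Top2a (1.27), Mki67 (1.005) and Mcm3 (0.86). When the letter was a term 3 rose, and Cdk1 (adjusted p = 0.0586) and Mki67 (adjusted p = 0.0502) did not pass. Among E libraries 4 of 23 tested rose, and Cdk1 (adjusted p = 0.162) and Top2a (adjusted p = 0.0596, log2 2.27) did not pass. Of 18 tested clock genes 3 rose and 3 fell, with Arntl (-0.33) the lowest and Bhlhe41 (0.41) the highest, and 1 passed with the letter as a term. Of 23 tested genes of oxidative phosphorylation 2 fell, Cycs (-0.36) and Cox5a (-0.19), and none passed with the letter as a term.

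Genes near the targeted genes can carry alleles of the strain in which a knockout was made, so they were counted apart. Within 20 Mb of Neu3, 60 of 343 tested genes passed (17.5%), 39 higher and 21 lower, against 15.7% of all genes. Within 20 Mb of Glb1, whose interval is shared by both groups, 56 of 379 passed (14.8%), 34 higher and 22 lower. The smallest adjusted p-values near Neu3 belonged to Idh2 (0.70), Ctsc and Ucp2 (0.83), and near Glb1 to Parp3 (1.21), Gnai2 (0.40) and Cx3cr1.

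The loss of Neu3 with Glb1 present was read from Neu3KO against WT, which shares no library with the contrast above. There 0 of 18336 genes passed edgeR's test (0%), with a smallest adjusted p of 0.116 and 1105 genes at an unadjusted p under 0.05, and DESeq2 called 2. The medians of the 57 lists ran from -0.68 to 0.58 in that contrast. In Neu3KO and WT, Gfap read 211.7, 205, 158, 166 and 180.5 CPM and 169, 204, 220.2, 159.5 and 215 CPM, Gpnmb 3.77, 2.55, 3.01, 3.39 and 3.24 and 3.42, 2.72, 4.11, 3.4 and 4.25 CPM, and Itpr1 1044, 1288, 1197, 1337 and 1266 and 1304, 1245, 1275, 1167 and 1213 CPM. For Gfap the log2 of Neu3KO over WT was -0.07, for Gpnmb -0.16, for Serpina3n 0.01, for Ctsd 0.049 and for Itpr1 -0.02.

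The difference between the 2 contrasts was tested directly, as DKO over Glb1KO less Neu3KO over WT. It passed in 1255 genes (6.84%), above 0 in 727 (3.96%) and below 0 in 528 (2.88%). Of the 1542 genes higher in DKO than in Glb1KO, 696 also passed with a difference above 0, and of the 1337 lower, 483 with a difference below 0. The difference contains the same DKO and Glb1KO libraries, so a shared sign is largely built in. These counts, and those by gene and list that follow, are therefore not independent of the first contrast. The difference was 3.17 (adjusted p = 1.85e-09) for Gfap, 3.73 (adjusted p = 2.15e-09) for Gpnmb, 6.72 (adjusted p = 0.00766) for Lcn2, 1.45 (adjusted p = 1.59e-09) for Ctsd and -1.23 (adjusted p = 0.0436) for Car8. The value for Lcn2 includes a log2 of Neu3KO over WT of -1.035, which did not pass, and rests on very few reads in Glb1KO. In the disease-associated microglia list the difference passed for 22 of 28 members, in the reactive astrocyte list for 14 of 22 and in the immediate early list for 2 of 17. For Egr2 it was -0.58 (adjusted p = 0.517), with Egr2 at 12.4, 9.57, 13, 6.65 and 9.67 CPM in Neu3KO and 14.6, 19.7, 16.4, 14.8 and 16.4 CPM in WT.

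**Figure D5:**
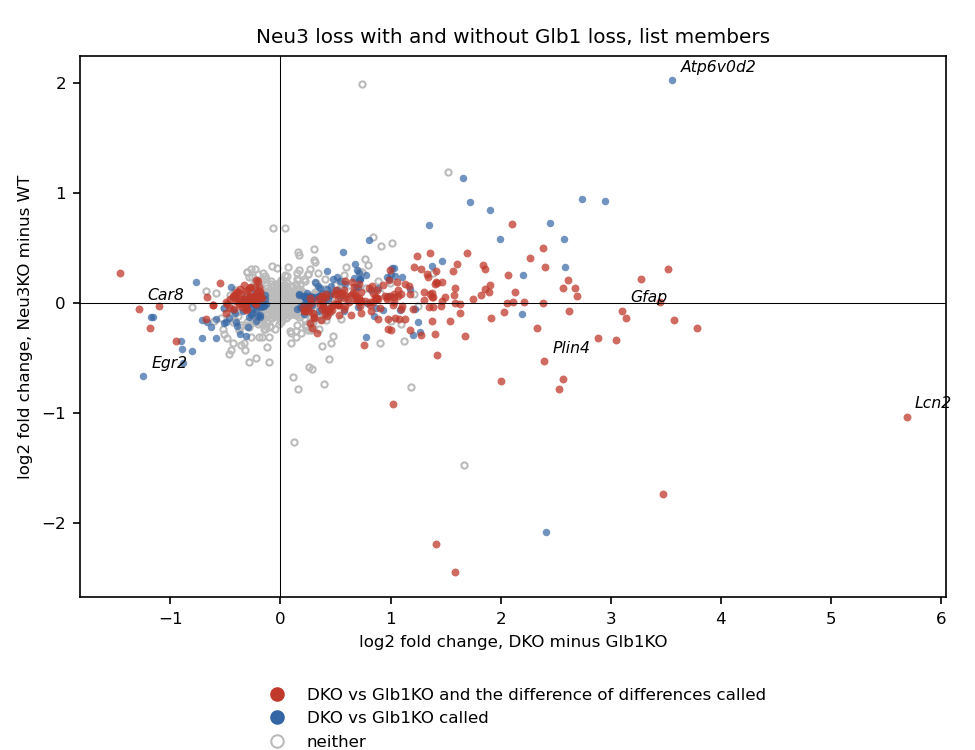
Each point is a list member, with its log2 fold change of DKO over Glb1KO on the x axis and of Neu3KO over WT on the y axis, red where the first and the difference between the contrasts pass, blue where only the first does, and grey and open for the rest. The filled red points spread along the x axis from Cd6 on the left (-1.46) to Lcn2 on the right (5.69), and most lie near 0 on the y axis.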

How the data were processed

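Per the labels, poly(A)-selected libraries were made from 1 hemisphere each. Per the submitters' processing notes, which list tools without roles, the builds were mm10 and GRCm38 and the tools featureCounts 1.5.0-p3, DESeq2 1.20.0, HISAT2 2.0.5 and fastp. The deposited table holds the authors' whole-number read count of 54532 genes in 20 libraries; the strand setting is not given in the sources used here.

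Counts were scaled by TMM, filtered with filterByExpr (18336 genes kept) and fitted in edgeR 4.0.16 (robust quasi-likelihood, 1 mean per genotype, all 20 libraries). P-values were adjusted by Benjamini-Hochberg over all genes, with a threshold of 0.05, and each SE was taken as the log2 fold change over the root of F. The script was tested on simulated data. CPM are counts scaled to a common TMM-adjusted library size. Neu3 and Glb1 were tested by exact permutation. The 57 gene lists and the members were chosen with earlier results of these data known. Named genes are the 12 highest and 12 lowest folds among called protein-coding genes of mean CPM at least 1 whose groups do not overlap, without genes within 20 Mb of either target, Y-linked genes, Xist and unnamed models. From each list up to 4 members of smallest adjusted p, up to 2 of highest CPM and those opposite to the majority were taken, and up to 3 near each target. Other genes were named after their values were seen. Some genes that enter the counts of their lists are not reported here by name. Replicate numbers are shared by the groups, but same-numbered libraries did not deviate together. Alternatives were scaling, filters, DESeq2 1.42.0, the identifier letter, single libraries left out, a fold minimum and the replicate number as a block.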

Additional observations from a re-analysis of the deposited data

Results flagged for a closer look

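For the 45 genes given library by library, the highest or lowest of 5 libraries in a group stood apart from the rest (gap over range above 0.71, the 95% value of Dixon's test) in 10 of 90 groups, and chance gives about 1 in 20. Arc read 136 CPM in Glb1KO replicate 5, where the others ran from 214 to 238 CPM. C3 read 3.91 CPM in Glb1KO replicate 1, where the others ran from 2.11 to 2.49 CPM. Ccl2 read 0 CPM in Glb1KO replicate 1, where the others ran from 0.12 to 0.146 CPM. Clec7a read 28.5 CPM in DKO replicate 1, where the others ran from 21.1 to 22.2 CPM. Egr2 read 2.6 CPM in DKO replicate 5, where the others ran from 5.23 to 6.03 CPM. Gpnmb read 25.5 CPM in Glb1KO replicate 5, where the others ran from 39.5 to 45.1 CPM. Hcar2 read 3.25 CPM in DKO replicate 2, where the others ran from 2.46 to 2.65 CPM. Lilr4b read 15.8 CPM in DKO replicate 5, where the others ran from 6.67 to 9.03 CPM. Rims1 read 211.7 CPM in Glb1KO replicate 1, where the others ran from 220.2 to 224 CPM. Slc6a11 read 404 CPM in Glb1KO replicate 5, where the others ran from 339 to 352 CPM. Their cause was not tested.

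The difference between the 2 contrasts, DKO over Glb1KO less Neu3KO over WT, passed in 1255 genes by its own test. It passed in 34 of the genes given library by library. The identifier letters are unevenly spread over the genotypes, and with the letter as a term 1111 genes passed, 888 of them shared. Of the genes below, Ccl2, Plin4, Arc and Snap25 passed between DKO and Glb1KO under neither identifier alternative. The log2 difference was above 0 for Lcn2 (6.72), Ccl2 (5.21), Gpnmb (3.73), Serpina3n (3.44), Mcoln3 (3.39), Lgals3 (3.28), Lilr4b (3.22), Gfap (3.17), C3 (3.06), Plin4 (2.93) and Lif (2.63). For Lcn2 and Ccl2 it includes log2 values of Neu3KO over WT of -1.035 and -1.734, neither past the test. Both genes had very few reads in Glb1KO, so their place at the head is uncertain. Smaller values above 0 belonged to Siglec1 (2.54), Osmr (2.40), C4b (2.38), Mpeg1 (1.84), Ctsd (1.45), Aqp4 (1.34), Bst2 (1.22), Mt1 (1.2), Apoe (0.98), Hexa (0.67), Lamp1 (0.61) and Mbp (0.33). It was below 0 for Abhd12b (-2.83), Car8 (-1.23), Arc (-0.95), Kif5a (-0.85), Itpr1 (-0.59), Bdnf (-0.53), Rims1 (-0.49), Kcnc2 (-0.48), Snap25 (-0.42), Shank3 (-0.37) and Slc6a11 (-0.31). Neu3KO did not differ from WT past the threshold in any gene tested, so its lack of a call is not particular to these genes.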

How the results depend on the processing

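Of 18336 genes tested, 2879 passed between DKO and Glb1KO, and the count moved by more than 1.5 times under 4 alternatives. It was 1203 with the identifier letter as a term, 901 among libraries carrying E, 1783 when only the 2 DKO and 2 Glb1KO libraries carrying E were fitted (chosen after seeing the data), and 782 with a fold minimum of 1.2. Of the calls, 53.6% were higher in DKO, against 61.8% with the letter, 68.1% among E libraries and 81.6% with the fold minimum. Other scalings gave 2838 and 2839, no filter 2918, and DESeq2 3119, while the count ran from 2306 to 3009 as single libraries were left out. Neu3KO against WT had 0 calls, but 26 with no filter, 2 with DESeq2, 3 with the groups alone, 1 among E libraries and 1 at most as single libraries were left out. The difference between the contrasts passed in 1255 genes, in 183 among E libraries (Neu3KO has 1 there, whose spread is assumed to be that of the other groups) and in 368 with the fold minimum, and in 984 to 1321 as single libraries were left out. The Neu3 level differed by -1.08 CPM, by -1.7 CPM among E libraries (2.49 against 4.19 CPM, exact permutation p = 0.333, the smallest possible) and by -1.41 to -0.853 CPM as single libraries were left out, where it passed without Glb1KO replicate 2 (-1.30) or DKO replicate 4 (-1.41). The cause of these moves was not tested. Same-numbered libraries did not deviate together (r from -0.009 to 0.065), and with the replicate number as a block 2774 genes passed between DKO and Glb1KO, 2688 of them shared, 0 between Neu3KO and WT and 1136 for the difference. The sign turned for 5 named genes at the log2 values in brackets, Cbln3 (-0.009 among E libraries, -0.015 in the E libraries of the 2 groups alone, -0.032 to 0.179 as single libraries were left out, turning without DKO replicate 4), Neu1 (-0.037 to 0.016 as single libraries were left out, turning without Glb1KO replicate 1, Glb1KO replicate 4 or DKO replicate 1), Neu4 (0.138 with the letter, 0.248 among E libraries, 0.243 in the E libraries of the 2 groups alone, -0.147 to 0.100 as single libraries were left out, turning without DKO replicate 5), Opalin (0.217 among E libraries, 0.213 in the E libraries of the 2 groups alone) and Tmem119 (-0.033 with the letter). With 246 of the genes named here called, 178 passed with the letter as a term and 164 among E libraries, where only 2 libraries stand in each group compared. Depth limits the genes under 1 CPM, for which single reads set the fold.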

Other observations

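Some abundant genes outside the lists were chosen after their values were seen, among called genes with a mean of at least 50 CPM. Kif5a, a kinesin that carries cargo along axons, read 2002, 1890, 1957, 1973 and 1872 CPM in Glb1KO and 1146, 1337, 1144, 1026 and 924 CPM in DKO (log2 fold change -0.80 ± 0.07 SE, adjusted p = 8.62e-09). Rgs8 (-0.82) and Rgs4 (-0.64), regulators of G-protein signalling, Unc13c (-0.70), a priming factor of synaptic vesicles, and Atp2b2 (-0.53), a calcium pump of the plasma membrane, fell. Mfge8, which bridges phosphatidylserine on dying cells to phagocytes, fell as well (-0.76).

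Mpeg1, a pore-forming protein of macrophages, read 68.4, 61.4, 61.4, 66.2 and 55.7 CPM in Glb1KO and 268, 239.5, 259, 230.2 and 229 CPM in DKO (log2 fold change 1.97 ± 0.07 SE, adjusted p = 2.23e-21). Prdx6 (1.17), a peroxidase that reduces phospholipid hydroperoxides, Igfbp5 (1.13), a binding protein of insulin-like growth factors, and Msn (1.08), a linker of membrane and actin, rose. Plce1 (1.28), a phospholipase C, Ptgds (0.96), the prostaglandin D synthase, and Clu (0.75), a secreted chaperone, rose too.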
